A study of Homo sapiens with 10 samples.

Results

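The transcripts followed here encode the proteins that detect double-stranded RNA in the cytosol and endosome, with their shared adaptor and the enzymes that act on such RNA: IFIH1 (MDA5), RIGI (RIG-I), DHX58 (LGP2), TLR3, MAVS, EIF2AK2 (PKR) and ADAR. The members were all probe sets annotated to 1 of these 7 gene symbols alone, which gave 18 of the 54675 probe sets on the array, for 7 of 19775 genes with such a probe set. The annotation uses RIGI for the gene formerly called DDX58. RIGI and MAVS had 3 and 4 probe sets, IFIH1, TLR3 and EIF2AK2 had 3 each, and DHX58 and ADAR had 1 each.

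Transcript levels were measured in SKBR3 cells, a breast cancer line with amplified HER2 and the mutant p53R175H, on 10 Affymetrix arrays. Cells received an siRNA to p53 (p53i) or, as the negative control, one to the bacterial gene LacZ (LacZi), and each siRNA had 5 arrays. Of these, 1 each came from cells given calcitriol (1alpha,25-dihydroxyvitamin D3, D3 below) at 100 nM for 8, 20 and 50 h, and 2 from untreated cells. All groups shared the line, its mutant p53, medium with charcoal-stripped serum and transfection with an siRNA. The sample text places D3 at 24 h after transfection and the series text at 48 h. No array from untransfected cells or from another p53 siRNA was analysed here, so the sequence of the siRNA and the loss of its target cannot be told apart. The labels call the untreated pairs biological replicates and do not say whether the D3 arrays came from separate cultures, so p-values reflect the spread among these samples, which may be technical. In bulk RNA, fewer cells with a transcript and less of it per cell cannot be told apart.

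RIG-I and MDA5 are cytosolic helicases that bind viral or other foreign double-stranded RNA and signal through the mitochondrial adaptor MAVS to the induction of interferon. LGP2 is a related helicase without the signalling domain that modulates the others, and TLR3 senses double-stranded RNA in endosomes through a separate adaptor, TICAM1. PKR is a kinase that is switched on by double-stranded RNA and phosphorylates the translation factor eIF2alpha, and ADAR edits adenosine to inosine in double-stranded RNA, which limits its recognition as foreign. Most of these genes are themselves induced by interferon. Transcript levels do not measure the activity of the proteins.

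Promoter windows from RefSeq (GRCh38.p14, 250 bases before to 50 bases after an annotated start) were found for 6 of the 7 genes, all but DHX58. They were searched on both strands for GAAA repeated after 2 bases of any kind, the core of the interferon-stimulated response element (ISRE), for GAAANGAAA, a form with a shorter spacer that was added after the RIGI sequence had been read, and for TTCNNNGAA, the palindromic STAT dimer site. The windows of the 5 genes with a probe set above the filter are shown, since the siRNA comparison below rests on them. Capitals mark the ISRE core or GAAANGAAA on either strand, and each sequence is written 5' to 3' on the strand of its gene.
RIGI (chr9:32526147-32526446, - strand): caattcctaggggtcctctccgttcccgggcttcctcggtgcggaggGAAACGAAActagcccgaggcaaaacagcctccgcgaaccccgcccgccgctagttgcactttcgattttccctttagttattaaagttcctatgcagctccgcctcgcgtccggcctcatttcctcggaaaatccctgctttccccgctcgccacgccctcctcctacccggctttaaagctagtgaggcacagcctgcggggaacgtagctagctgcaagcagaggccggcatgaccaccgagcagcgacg
IFIH1 (chr2:162318635-162318934, - strand): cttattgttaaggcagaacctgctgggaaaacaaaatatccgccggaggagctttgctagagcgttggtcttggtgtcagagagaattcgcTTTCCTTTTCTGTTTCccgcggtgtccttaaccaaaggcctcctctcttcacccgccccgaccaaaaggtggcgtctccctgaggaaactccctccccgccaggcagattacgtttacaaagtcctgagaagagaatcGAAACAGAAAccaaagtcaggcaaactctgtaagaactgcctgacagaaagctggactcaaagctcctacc
EIF2AK2 (chr2:37156931-37157230, - strand): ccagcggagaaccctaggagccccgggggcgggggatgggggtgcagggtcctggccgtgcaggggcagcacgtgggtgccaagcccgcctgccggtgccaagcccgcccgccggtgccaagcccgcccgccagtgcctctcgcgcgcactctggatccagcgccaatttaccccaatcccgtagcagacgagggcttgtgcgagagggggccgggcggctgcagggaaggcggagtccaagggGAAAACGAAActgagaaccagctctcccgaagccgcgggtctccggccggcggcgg
ADAR (chr1:154627948-154628247, - strand): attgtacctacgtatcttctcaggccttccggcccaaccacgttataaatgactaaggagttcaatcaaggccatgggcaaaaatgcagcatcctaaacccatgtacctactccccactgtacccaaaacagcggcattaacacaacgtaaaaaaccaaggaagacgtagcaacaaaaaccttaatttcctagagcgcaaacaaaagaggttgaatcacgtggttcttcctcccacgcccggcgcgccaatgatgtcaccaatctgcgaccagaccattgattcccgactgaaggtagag
MAVS (chr20:3846584-3846883, + strand): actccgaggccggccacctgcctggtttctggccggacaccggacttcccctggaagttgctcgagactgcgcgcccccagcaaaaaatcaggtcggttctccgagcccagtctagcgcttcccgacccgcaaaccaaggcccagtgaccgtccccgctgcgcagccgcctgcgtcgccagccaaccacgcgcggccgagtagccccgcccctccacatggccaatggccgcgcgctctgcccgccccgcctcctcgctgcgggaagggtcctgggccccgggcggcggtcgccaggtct

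The EIF2AK2 window held the ISRE core at 1 place, from position -6 to 4 around the annotated start. IFIH1 held it at 3 places, of which 2 overlapped on the opposite strand (-159 to -150 and -153 to -144) and 1 lay at -21 to -12. TLR3, not printed, held it on the opposite strand at -4 to 6, and also held TTCNNNGAA at 2 places. RIGI held the shorter-spaced GAAANGAAA at -203 to -195. None of the 3 patterns was found in the MAVS window or in the 3 overlapping or alternative windows of ADAR, of which 1 is printed. Of 35116 windows of this length, 3.57% held the ISRE core, 3.12% held GAAANGAAA and 7.66% held TTCNNNGAA. A match is a description of the letters and was not tested as a binding site.

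Signals are MAS5 intensities on a linear scale, which the authors had scaled so that each array's trimmed mean was about 200. Differences are given on the log2(signal + 16) scale, and the probe sets in the upper 50% by mean on that scale (a signal above 35.3) were tested, 27306 in all. Of the 18 probe sets, 11 passed this filter: 3 of RIGI, 1 of IFIH1, 2 of EIF2AK2, 4 of MAVS and 1 of ADAR. The other 7, with DHX58 and all of TLR3 among them, have signals only. Median signals per array were 35.7 to 44.2. Luminal and HER2 markers had a high summed signal in all arrays (9 genes, 80277 to 104918 in p53i and 70729 to 78971 in LacZi arrays). Single markers differed widely, from TFAP2B at 136 to 332 to KRT18 at 17758 to 29750. Of these 9, KRT8, a luminal keratin, rose by 0.42 ± 0.06 and GRB7, an adaptor co-amplified with HER2, by 0.38 ± 0.09 in p53i cells (limma adjusted p = 0.00547 and 0.0453), 0 fell and the median was 0.27. The GRB7 call was lost with any 1 array left out (0.31 to 0.44). The part of this shift in the members' differences was not tested. Of markers of other cells, 3 of 6 immune, 5 of 6 fibroblast and 4 of 5 endothelial marker genes lay below the filter. Calcitriol acted in cells with either siRNA as judged by CYP24A1, the calcitriol-degrading enzyme, at 4234 to 4824 in p53i and 5039 to 6476 in LacZi D3 arrays, against 23.7 to 40.0 in the untreated arrays. The siRNA's target was not analysed here, so its knockdown remains unchecked.

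RIGI was the sensor with the clearest difference between the siRNAs. Probe set 218943_s_at read 166 and 216 in untreated p53i cells and 125, 159 and 191 in p53i cells at 8, 20 and 50 h of D3. The LacZi arrays read 74.8 and 60.2 untreated and 48.4, 77.0 and 90.0 at the same times. Every p53i array lay above every LacZi array. The mean was 171 ± 34.5 in p53i and 70.1 ± 16.1 in LacZi cells (SD, n = 5 each), a log2 difference of 1.12 ± 0.15 (SE) or 2.18-fold (limma adjusted p = 0.00327). The call was kept with each array left out in turn, at 1.04 to 1.17.

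A further RIGI probe set, 242961_x_at, whose suffix means that some of its probes also match other transcripts, read 224, 291, 146, 196 and 213 in p53i cells (untreated 1 and 2, then D3 at 8, 20 and 50 h). In LacZi cells it read 122, 128, 138, 131 and 105 in the same order. The groups did not overlap, and p53i cells were higher by 0.68 ± 0.16 on the log2 scale (limma adjusted p = 0.0385). This call was lost without either untreated LacZi array (0.63 and 0.65), without p53i untreated 2 (0.59), without either 20 h array (0.72) and without either 50 h array (0.62). The remaining RIGI probe set, 222793_at, read 138, 124, 95.9, 89.0 and 199 in p53i cells and 89.4, 77.9, 88.3, 70.6 and 87.0 in LacZi cells. Its groups overlapped at the p53i 20 h array, and the difference of 0.51 ± 0.17 was not called (limma adjusted p = 0.111).

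**Figure D1:**
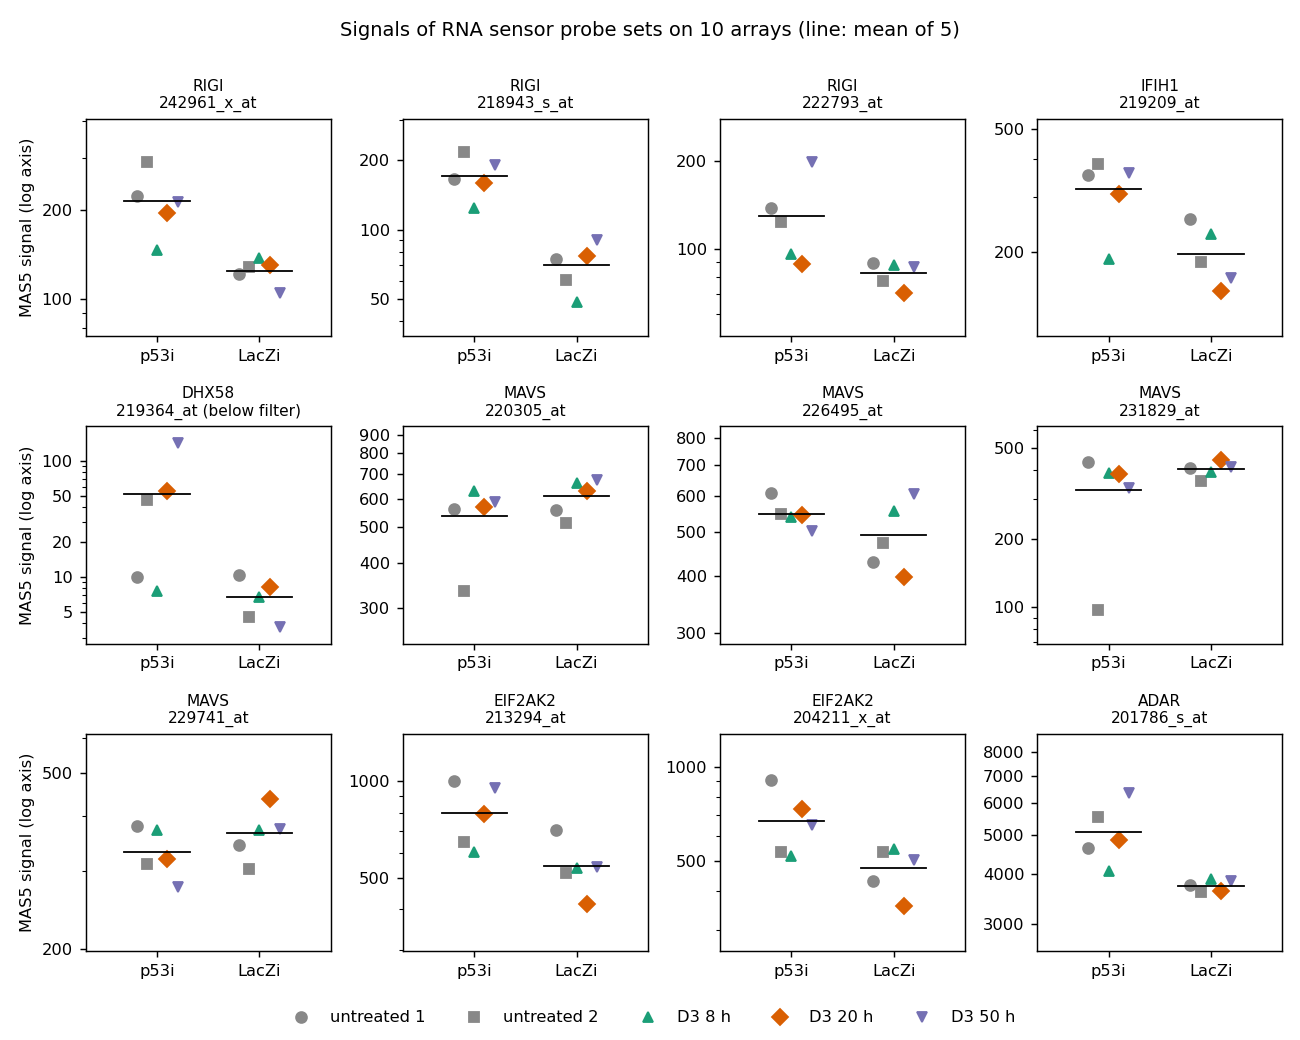
MAS5 signal (log axis, scaled separately in each panel) of the 11 tested probe sets and of DHX58, which lay below the filter, on the 5 p53i and 5 LacZi arrays; symbols mark untreated arrays and D3 times and lines the mean of 5. The groups do not overlap for RIGI 218943_s_at and 242961_x_at or for ADAR, and the 8 h p53i array is low in several panels.

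IFIH1, the MDA5 gene, was measured above the filter by 219209_at. Its signals were 354 and 386 in untreated p53i cells and 189, 308 and 359 after D3 for 8, 20 and 50 h, against 256, 185, 229, 149 and 164 in LacZi cells in that order. Only the 8 h p53i array fell within the LacZi range. The mean was 319 ± 78.0 in p53i and 196 ± 44.7 in LacZi cells (SD, n = 5 each), and the difference of 0.65 ± 0.18 was not called (limma adjusted p = 0.0678). Without either 8 h array it was 0.87 and called (limma adjusted p = 0.0216 and 0.0220). These were the only 2 of 24 alternative fits that called it, and over the 24 it stood at 0.42 to 0.87 (limma adjusted p up to 0.457). The other IFIH1 probe sets, 1555464_at and 216020_at, read at most 33.1 and 30.8 on any array and were below the filter.

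DHX58, the LGP2 gene, lay below the filter, and its LacZi signals were near the low end of the array, at 10.4, 4.50, 6.72, 8.20 and 3.75. In p53i cells it read 10.0 and 45.7 untreated and 7.52, 54.5 and 141 after D3 for 8, 20 and 50 h. Thus 3 of 5 p53i arrays stood above all LacZi arrays and the others, untreated 1 and 8 h, lay within their range. In a fit of all 54613 probe sets without the filter, the difference was 1.23 ± 0.40 and not called (limma adjusted p = 0.188). TLR3 read 0.596 to 23.9 in p53i and 0.915 to 18.9 in LacZi cells over its 3 probe sets, so no level above the array's low range was seen for it. In the same unfiltered fit its differences were 0.13 to 0.31, none called (limma adjusted p = 0.613 to 0.891).

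MAVS, the adaptor of RIG-I and MDA5, showed no called difference on any of its 4 probe sets. The signals of 226495_at were 607, 546, 539, 545 and 503 in p53i and 429, 473, 554, 398 and 604 in LacZi cells, with a difference of 0.17 ± 0.12. For 220305_at the difference was -0.20 ± 0.13, for 229741_at -0.14 ± 0.12 and for 231829_at -0.44 ± 0.29 (limma adjusted p = 0.404 to 0.578 over the 4). The probe sets did not point the same way. The values of 220305_at and 231829_at rested largely on 1 array, p53i untreated 2, where they read 335 and 96.7, against 561 to 629 and 334 to 435 on the other p53i arrays. Without that array their differences were -0.08 and -0.07.

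EIF2AK2, the PKR gene, read 1003 and 649 in untreated p53i cells on 213294_at and 603, 791 and 954 after D3 for 8, 20 and 50 h. The LacZi arrays read 704, 519, 539, 415 and 544. Of the p53i arrays, untreated 2 and 8 h fell below the highest LacZi array. The mean was 800 ± 178 in p53i and 544 ± 104 in LacZi cells (SD, n = 5 each), a difference of 0.53 ± 0.15 that just missed the threshold (limma adjusted p = 0.0685). It was called in 3 of 24 alternative fits and stood at 0.44 to 0.66 over the 24 (limma adjusted p up to 0.239). Among the 3 were those without p53i untreated 2 (0.65, adjusted p = 0.0212) and with a gene's probe sets averaged (0.44, adjusted p = 0.0437). Probe set 204211_x_at averaged 668 ± 162 in p53i and 474 ± 79.1 in LacZi cells and differed by 0.47 ± 0.17 (adjusted p = 0.142), and 242898_at, at 17.2 to 54.0, was below the filter.

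ADAR, the editing enzyme, read 4638 and 5546 in untreated p53i cells and 4065, 4861 and 6347 after D3 for 8, 20 and 50 h. The LacZi arrays were close together, at 3743, 3597, 3892, 3625 and 3845. All p53i arrays were above all LacZi arrays, with means of 5091 ± 880 and 3740 ± 130 (SD, n = 5 each). The rise was 0.43 ± 0.09 on the log2 scale or 1.34-fold (limma adjusted p = 0.0283). The call was lost without either untreated LacZi array (0.43 and 0.41), either 20 h array (0.43) or either 50 h array (0.35).

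Counted together, 3 of the 11 tested probe sets rose in p53i cells (2 of RIGI and that of ADAR), 0 fell and 8 did not pass. Over all probe sets tested, 1.91% were called higher and 1.63% lower, 3.55% in either direction. The median difference was 0.47 over the 11 and -0.02 over all 27306. The same 3 probe sets had every p53i array above every LacZi array, against 2.46% of all tested, and 0 had every p53i array below, against 2.81%. Without the filter, 1 of the 18 member probe sets was called, RIGI 218943_s_at, against 503 of all 54613.

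**Figure D2:**
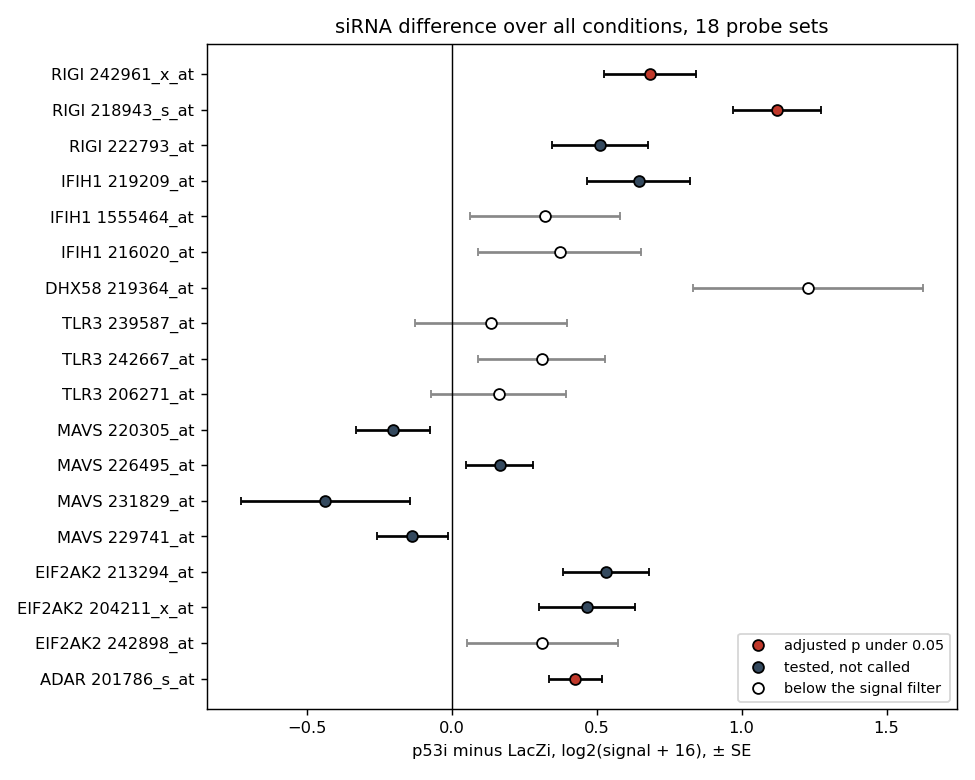
Difference between p53i and LacZi cells over all conditions for the 18 probe sets, in log2(signal + 16) with SE; red marks adjusted p under 0.05, dark marks tested but not called, and open points lie below the filter, with values from the unfiltered fit. RIGI and ADAR carry the called rises of 0.43 to 1.12, and the MAVS points lie between -0.44 and 0.17.

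A measure of RNA integrity and labelling moved with the siRNA. The ACTB control probe sets gave a 3'/5' signal ratio of 4.39 and 8.72 in untreated p53i cells and 4.77, 7.11 and 6.12 after D3 for 8, 20 and 50 h. In LacZi cells the ratio was 4.05, 3.79, 5.05, 4.80 and 4.60. The p53i arrays untreated 1 and 8 h lay within the LacZi range. The means were 6.22 ± 1.77 and 4.46 ± 0.523 (SD, n = 5 each; exact permutation test, two-sided, p = 0.0714). With the ratio as a covariate, entered on the log2 scale, 0 of the 11 probe sets were called, and of all probe sets 86 were, against 968 without it. RIGI 218943_s_at then stood at 0.98 (limma adjusted p = 0.0578), RIGI 242961_x_at at 0.44 (adjusted p = 0.334), ADAR at 0.28 (adjusted p = 0.254), IFIH1 at 0.42 (adjusted p = 0.457) and EIF2AK2 213294_at at 0.66 (adjusted p = 0.164). Without the 2 arrays of highest ratio, p53i untreated 2 and p53i 20 h, RIGI 218943_s_at was called at 1.08 (limma adjusted p = 0.0409), and RIGI 242961_x_at at 0.60 and ADAR at 0.37 were not.

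**Figure D3:**
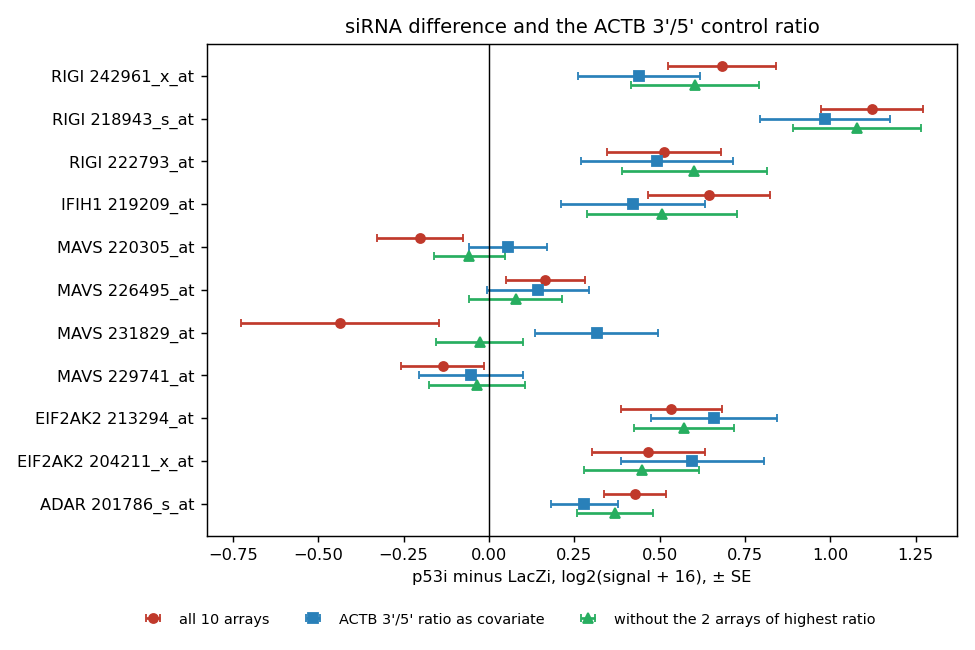
Difference between p53i and LacZi cells, log2(signal + 16) with SE, for the 11 tested probe sets with all 10 arrays, with the ACTB 3'/5' ratio as a covariate, and without the 2 arrays of highest ratio. RIGI 218943_s_at stays between 0.98 and 1.12, while ADAR moves between 0.28 and 0.43 and MAVS 231829_at between -0.44 and 0.32.

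Matched by condition, the differences were small at 8 h for all but 1 probe set. In untreated cells 9 of 11 tested probe sets were higher in p53i cells, with a median of 0.47. At 8 h of D3, 5 of 11 were higher, with a median of -0.00, and RIGI 218943_s_at alone exceeded 0.5, at 1.13. The count was 8 of 11 at 20 h (median 0.44) and 7 of 11 at 50 h (median 0.72). The 8 h p53i array was the lowest of the p53i arrays for 6 of the 11. ISG15, an interferon-induced ubiquitin-like protein used here as a yardstick, read 1486, 3030, 1085, 2234 and 4183 in p53i and 337, 320, 240, 282 and 422 in LacZi cells, so the 8 h p53i array was also its lowest in p53i cells but lay above all LacZi arrays. Each D3 time rested on 1 array per siRNA, and the title of the 8 h p53i sample spells its siRNA differently from the others.

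**Figure D4:**
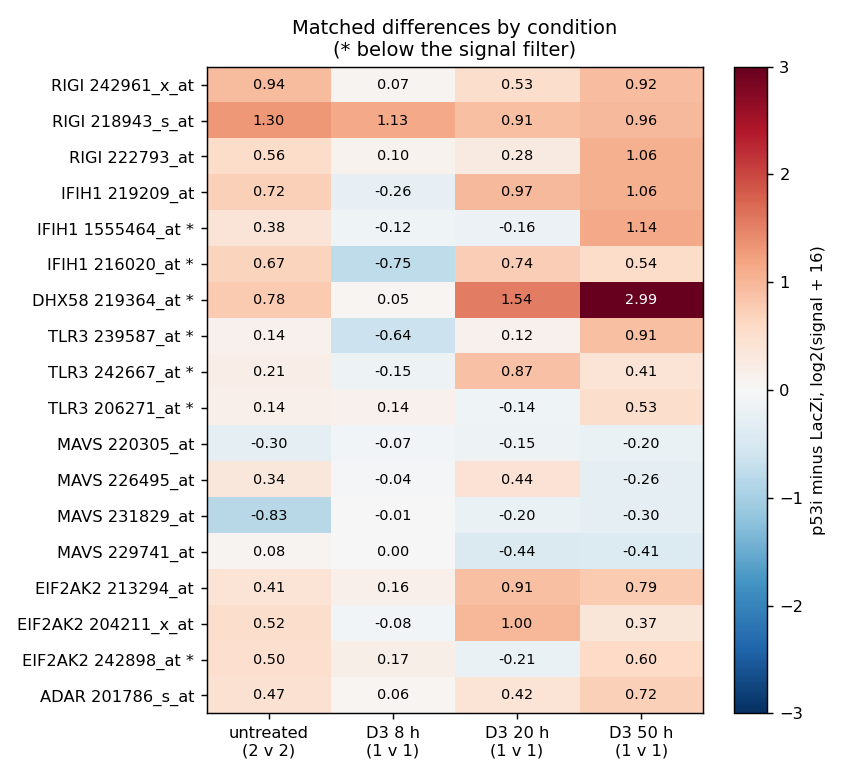
Matched difference between p53i and LacZi cells, log2(signal + 16), for the 18 probe sets in untreated cells and at each D3 time, with the number of arrays per siRNA. Most values at 8 h lie near 0, RIGI 218943_s_at is between 0.91 and 1.30 in every column, and DHX58 reaches 2.99 at 50 h from signals below the filter.

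With untreated cells taken alone (2 arrays for each siRNA), 0 of the 11 were called, and 0.00732% of all probe sets were (2 of 27306). At an unadjusted p under 0.05, 4 of the 11 passed, against 11.1% of all probe sets. RIGI 218943_s_at was higher in p53i cells by 1.30 ± 0.27, RIGI 242961_x_at by 0.94 ± 0.24, IFIH1 219209_at by 0.72 ± 0.23 and ADAR by 0.47 ± 0.14 (limma adjusted p = 0.286 to 0.357). Without p53i untreated 1, RIGI 218943_s_at was called (1.48, limma adjusted p = 0.0491) and MAVS 231829_at was called lower (-1.83, limma adjusted p = 0.00805), in a fit that called 801 probe sets in all. That MAVS value rests on p53i untreated 2, and without this array it was 0.17 and not called.

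Calcitriol did not produce a called change in any of these probe sets. Averaged over the 3 times, D3 minus untreated ranged from -0.33 ± 0.18 for IFIH1 219209_at to 0.44 ± 0.30 for MAVS 231829_at, and 0 of 11 were called in limma, against 1.99% of all tested (1.1% higher and 0.886% lower). MAVS 220305_at, at 0.36 ± 0.13, was the probe set with an unadjusted p under 0.05 (limma adjusted p = 0.177), 1 of 11 against 16.8% of all probe sets, and stood at 0.21 without p53i untreated 2. The IFIH1 value was -0.15 without the p53i 8 h array and -0.52 without the LacZi 8 h array, and the MAVS 231829_at value was -0.02 without p53i untreated 2. With the ACTB ratio as a covariate MAVS 220305_at was called at 0.43, and 2 of the 11, this probe set and MAVS 231829_at, were called higher with D3. The values at single times were -0.46 to 0.44 at 8 h, -0.37 to 0.52 at 20 h and -0.23 to 0.38 at 50 h, with 0 called at each, where 0.0732%, 0.22% and 1.98% of all probe sets were. Effects of D3 and of time since transfection cannot be told apart, since no untreated array is labelled with those times.

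The difference between the siRNAs was also compared between D3-treated and untreated cells. The interaction ranged from -0.43 ± 0.31 for RIGI 242961_x_at to 0.66 ± 0.58 for MAVS 231829_at, with SE of 0.19 to 0.58 over the 11. The RIGI value was -0.22 without either 8 h array, -0.25 without p53i untreated 2 and -0.64 without either 50 h array. That of MAVS was -0.34 without p53i untreated 2, and 1.66 and called without p53i untreated 1. By limma 0 were called (adjusted p = 0.852 to 0.985) and 0 had an unadjusted p under 0.05, against 0% and 6.33% of all probe sets. At these errors an interaction of moderate size would not be detectable.

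Other genes of the pathway were taken from lists of known components, chosen with earlier results of these arrays known, each gene by its probe set of highest mean. Over all probe sets tested, 1.91% were called higher and 1.63% lower in p53i cells, which is given as a rough background for each list. That share counts probe sets while the lists count genes, and a share over genes was not computed. Among adaptors and regulators of RNA sensing, 1 of 24 tested genes rose and 0 fell in p53i cells. The riser was TRIM25, the ubiquitin ligase that acts on RIG-I, by 0.37 ± 0.09 (limma adjusted p = 0.0391), with 1279, 1524, 1132, 1594 and 1739 in p53i and 1220, 1159, 877, 1150 and 1186 in LacZi cells. Its groups overlapped at the 8 h array, and its call was lost in 8 of 10 fits with 1 array left out (0.32 to 0.43 over the 10), all but those without p53i untreated 1 or 2. The median of this list was -0.02, as over all probe sets. TICAM1, the TLR3 adaptor, differed by 0.28 ± 0.17 and the kinase TBK1 by -0.08 ± 0.08, neither called.

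Of 9 transcription factors of the response, IRF9 and IRF7 rose and 0 fell. IRF7, which amplifies interferon production, read 562, 808, 261, 536 and 891 in p53i and 194, 236, 208, 266 and 289 in LacZi cells, a rise of 1.20 ± 0.19 (limma adjusted p = 0.00775). Its 8 h p53i array lay within the LacZi range. IRF9, a subunit of the interferon-activated factor ISGF3, rose by 1.60 ± 0.13 and did not overlap between groups (limma adjusted p = 0.000159). With the ACTB ratio as a covariate IRF7 stood at 0.86 and was not called (limma adjusted p = 0.0906).

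Among other double-stranded RNA binding proteins 0 of 14 were called in limma, and among the PKR substrate, its sister kinases and the eIF2 stress response 0 of 21, with medians of -0.09 and -0.07. Of all probe sets tested 3.55% were called in either direction, so a count of 0 in lists this short does not set them apart. Of 5 tested sensors of other nucleic acids LRRFIP1 rose by 0.41 ± 0.07 (limma adjusted p = 0.0159), and 8 more were below the filter. That call was lost without LacZi untreated 1 (0.37), either 20 h array (0.41) or either 50 h array (0.39), and averaging its probe sets gave 0.18, not called. All 6 tested interferon-stimulated reference genes rose, with a median of 2.36, among them IFI27 by 4.30, IFIT1 by 3.56, ISG15 by 2.71 and OAS1 by 2.01. IFIT1, MX1 and IFI27 averaged 9.48, 29.7 and 34.7 in LacZi cells, below 35.3, and passed the filter only through their p53i signals. The filter therefore favoured a rise in the count and median of this list. IFI44L, which averaged 28.9 in p53i and 12.2 in LacZi cells, lay below the filter. That list was chosen with results of these arrays known and is not independent evidence.

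The interferon genes looked up were IFNA1, IFNB1, IFNE, IFNK, IFNG, IFNL1, IFNL2 and IFNL3. IFNA1 alone thus stood for the alpha interferons, and the other interferon genes were not examined. Of the 7 looked up that had a probe set, 6 lay below the filter, and their signals ranged from 0.578 to 96.8. The highest was that of IFNL2, a lambda interferon below the filter, which averaged 41.1 ± 31.8 in p53i and 31.0 ± 21.2 in LacZi cells (SD, n = 5 each), near the median of the arrays. IFNL1, the 1 tested, differed by -0.15 ± 0.27 (limma adjusted p = 0.798). In the list of interferons and receptors 0 of 7 tested rose and 2 fell. IFNAR1, a chain of the type I interferon receptor, fell by 0.59 ± 0.14 (limma adjusted p = 0.0437), with 189, 165, 112, 119 and 90.5 in p53i and 248, 212, 217, 165 and 194 in LacZi cells. IFNGR1, of the interferon-gamma receptor, fell by 0.43 ± 0.09 (limma adjusted p = 0.0279). Both were lost in most fits with 1 array left out, IFNAR1 in 9 of 10 (-0.66 to -0.50) and IFNGR1 in 7 of 10 (-0.48 to -0.36), and IFNAR1 stood at -0.01 when its probe sets were averaged.

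The members' profiles over the 10 arrays were set against each other and against other genes as a description. Pearson's r between the 3 RIGI probe sets was 0.70 to 0.85, between the tested EIF2AK2 pair 0.82, and between IFIH1 219209_at and ADAR 0.84. MAVS 220305_at and 231829_at had r of 0.91 with each other, which the low array p53i untreated 2 shared, and the other MAVS pairs -0.15 to 0.47. With siRNA and time taken out, the RIGI pairs had r of -0.07 to 0.59. All points share the arrays, their scaling and the ACTB ratio. The 5 genes with the profile most like ADAR were MLPH (0.98), STAU1 and PARP12 (0.96 each), and SP110 and GNB1 (0.95 each). Of these, MLPH rose by 0.39, PARP12 by 1.03, SP110 by 1.23 and GNB1 by 0.37 in p53i cells, and STAU1 was not called (0.18). For RIGI 242961_x_at they were SELENOM (0.98), OXLD1, ENTPD6, SLC61A1 and NDUFA11 (0.94 each), of which ENTPD6 alone was called, higher by 0.48 in p53i cells.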

How the data were processed

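Per the submitters' processing notes, the authors made the deposited intensity values with MAS5, as 1 linear signal per probe set and array. The MAS5 version is not stated in them. The trimmed mean (2% cut at each end) was about 200 on all 10 arrays, so no further scaling was applied. Detection calls were not used, and the number of arrays limits the precision. Probe sets were named through GEO's platform annotation: 41097 carried 1 symbol, 1801 several and 11777 none.

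Each array was grouped by its own labels. Signals became log2(signal + 16), 62 control probe sets were left out, and the upper 50% of the others by mean were tested, each probe set singly. Tests used limma 3.58.1 in R 4.3.3 (two-sided; lmFit, eBayes with trend) and Benjamini-Hochberg adjustment across 27306 probe sets and a threshold of 0.05. The siRNA and D3 differences were taken from 1 model with both factors as additive terms (5 residual degrees of freedom), the interaction from adding their product (4), and untreated cells from 8 group means (2). Each fit used 1 spread per probe set for all arrays, those without a replicate included. In the additive model an siRNA difference that varied between D3 times counted toward that spread. The fit was tested on simulated data. Named were all member probe sets, up to 4 called genes per list, and for each called member gene, on its probe set of highest mean, the 5 genes of highest Pearson r. TICAM1, TBK1, IFNL1 and IFNL2 fall outside this rule and were named after their values were seen. The members and lists were chosen with earlier results of these data known. Alternatives covered normalization, offset, filter, probe-set choice, variance trend, replicate block, arrays left out, group means and the ACTB ratio, and 1, without both untreated p53i arrays, was added after seeing the data.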

Additional observations from a re-analysis of the deposited data

Results flagged for a closer look

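Within the 5 arrays of each siRNA, 36 sets of member signals were checked for an array far from the others, and 2 stood out, both MAVS probe sets on p53i untreated 2. MAVS 231829_at read 96.7 there and 334 to 435 on the other p53i arrays. MAVS 220305_at read 335 there and 561 to 629 on the others. The remaining MAVS probe sets, 226495_at and 229741_at, read 546 and 312 on that array, within their ranges on the other p53i arrays. That array also had the highest ACTB 3'/5' ratio of all, 8.72, and the part of the ratio in these values was not tested. Chance alone flags about 1 in 20 such sets, and the 5 arrays differ in D3 treatment.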

How the results depend on the processing

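For the siRNA difference over all conditions, the count of 3 higher member probe sets was 0 with the ACTB ratio as a covariate and with group means, and 1 with no filter, with the upper 25% of probe sets, with no intensity trend, without the 2 arrays of highest ACTB ratio and without both untreated p53i arrays. It ranged from 1 to 4 with 1 array left out, and 0 members were called lower in each of these fits. The upper 25% removed all RIGI probe sets from the test, and group means left fewer residual degrees of freedom. Leaving out either array of a D3 time gave the same difference, since the other then has no match. The replicate number as a block (replicate block) gave 4 higher members, EIF2AK2 213294_at among them, and 1672 probe sets in all. The labels give a number to the untreated arrays only and do not say that it marks a shared culture. Their deviations correlated at 0.13 over 2 pairs. The count of all probe sets called, 968, was 45 with group means, 86 with the ACTB covariate, 122 when the arrays of highest ratio were left out, 64 with no trend, 381 with averaged probe sets, 503 with no filter, 555 without both untreated p53i arrays and 130 to 1336 with 1 array left out. MAVS 220305_at and 231829_at, not called, turned to 0.055 and 0.32 with the ACTB covariate.

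For D3, members called higher were 2 with the ACTB covariate and 0 in every other fit run, and 0 were lower. All called, 543 as reported, were 1070 with the covariate, 1130 with the replicate block, 287 with no filter, 319 with averaged probe sets, 91 with no trend, 65 with group means, 258 without both untreated p53i arrays and 115 to 1245 with 1 array left out. In untreated cells, 2 were called as reported, 8 with median centring, 7 with an offset of 64, 1 with no offset, 0 with no filter, averaged probe sets or no trend, 1 with the highest-mean probe set per gene, 110 with the replicate block, 4 without the arrays of highest ratio and 2 to 801 with 1 array left out. Members called there with 1 array left out were 0 to 1 in each direction. MAVS 231829_at, not called there, was 0.47 with the ACTB covariate and 0.17 without the arrays of highest ratio, and ranged from -1.83 to 0.17 with 1 array left out. For the interaction, called members ranged from 0 to 1 higher and all called from 0 to 326, with 326 without p53i untreated 1. MAVS 231829_at ranged from -0.017 (without p53i untreated 2) to 0.75 (without p53i untreated 1) for D3, and from -0.34 to 1.66 for the interaction without the same arrays, where it was -0.32 without the arrays of highest ratio. Differences that were not called changed sign in 21 of the D3, 27 of the interaction and 8 of the untreated values recomputed. Signals below 35.3 give no more than a low level, which limits DHX58 and TLR3.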
